A study of Mus musculus with 6 samples.

Results

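The 48 genes described here were well above background on every thyroid array and on none of the thymic arrays. They were picked from the detection flags of 6 single-colour Agilent arrays, out of 16227 named genes and 27745 gene names in all. A gene qualified when a probe carried the flag on each of 3 thyroid arrays while no probe of that gene carried it on any thymic array, after spots with outlier flags had been removed. Riken and predicted names were left out, as were Pax8, Tshr, Eltd1 and Clec14a, which met the flags too. The detection flags of both groups thus chose the genes, so every thyroid against thymic value of theirs is a description and carries no test.

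The arrays held RNA of sorted epithelial cells of C57BL/6 mice. The thymic group (ThymusEC) came from the medulla and was gated on Epcam, an epithelial adhesion protein, on binding of UEA1, a lectin used to mark medullary cells, and on absence of CD45, a protein that blood cells carry on their surface. The thyroid group (ThyroidEC) was Epcam-positive and CD45-negative, with no lectin in its gate, and the dye Fluorogold removed dead cells from both. The submitters call the 3 replicates of each group independent. A thyroid replicate was a pool of 20 glands. Pools of 6 thymi made up the thymic replicates 1 and 2, and 2 thymi the third. Age and sex are not given in the sources used here. Extraction used Trizol, and Cy3 was the dye.

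Thymic medullary epithelial cells are known for transcribing, each cell at random and at low level, a large part of the genes that are otherwise restricted to single tissues, in part under the control of the regulator Aire. T cells that react to the products are thereby removed or diverted.

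The labels were checked against markers first. Aire, at 6.09, 5.86 and 6.17 on the thymic arrays (log2 signal minus the array's 75th percentile, the scale of every level below), was at -5.51, -6.28 and -6.31 on the thyroid arrays. Thyroglobulin (Tg), the hormone precursor of the follicle, was at 8.83, 9.22 and 8.80 on the thyroid and -1.79, -1.93 and -1.76 on the thymic arrays. Both labels thus matched these markers in direction, though Aire was still well above background on 2 of 3 thyroid arrays. Foxn1, also read for this check, was at -3.69, -3.75 and -2.82 on the thyroid arrays and detected on all 3. On the thymic arrays it was at 1.27, 1.47 and 1.17. Fezf2 was detected on 3 thymic and 0 thyroid arrays. The Epcam gene (Tacstd1 in the files) was well above background on all 6 arrays, at 1.35 to 2.02 on the thyroid and 2.73 to 3.00 on the thymic arrays. Thyroid replicate 3 stood apart in sex-linked genes. Xist, the RNA of the inactive X chromosome, was at 4.48 there against -7.58 and -7.38 on thyroid replicates 1 and 2. Ddx3y, a gene of the Y chromosome, was at 1.86 and 1.66 on thyroid replicates 1 and 2 and at -8.71 on replicate 3. On the thymic arrays Ddx3y lay between 0.80 and 0.86, and Xist between -5.38 and -5.04. Thyroid replicate 3 decided no membership, since leaving it out returned the same number of genes and kept all 48.

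Each array read 43379 non-control spots, no spot was saturated, and the number of arrays limits the precision. The share of spots well above background was 79.0 to 81.6% on the thymic arrays and 65.8 to 73.1% on the thyroid arrays. Slide 1 carried every thymic array and thyroid replicate 1, and slide 2 carried the other thyroid arrays.

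Detection on thyroid arrays alone was rare. With the 4 genes left out by name, 52 named genes met the flags, or 0.32% of the named genes. The mirror pattern, detection on every thymic array and no thyroid array, was met by 1410 named genes, or 8.69%. The flag used here asks for a signal 13 background standard deviations above the background, and it acted on each array as a sharp threshold on the background-subtracted signal. A signal over threshold of 1 is therefore the limit of detection, and values of single genes are given below as multiples of it.

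Absence from the thymic arrays held for this strict flag only. The weaker flag of the scanner software marks a signal significantly above background. By the probe that stood for each gene, 29 of the 48 genes carried it on all 3 thymic arrays, 7 on 2, 6 on 1 and 6 on none. With every probe of a gene counted, 5 genes carried it on none. The highest thymic signal of the probe that stood for a gene lay between 0.0524 and 0.997 of the threshold, with a median of 0.663. On some thymic array, 9 genes exceeded 90% of the threshold. On the thyroid side, the lowest of a gene's 3 signals lay between 1.04 and 20.3 times the threshold, with a median of 2.70. Of the 48 genes, 19 exceeded 5 times the threshold on every thyroid array and 17 were under 2 times it on at least 1. Thyroid replicate 2 gave the lowest multiple for 43 genes. That array also had the highest threshold relative to its 75th percentile, at -5.18 on the log2 scale against -6.04 and -6.32 on the other thyroid arrays.

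**Figure D1:**
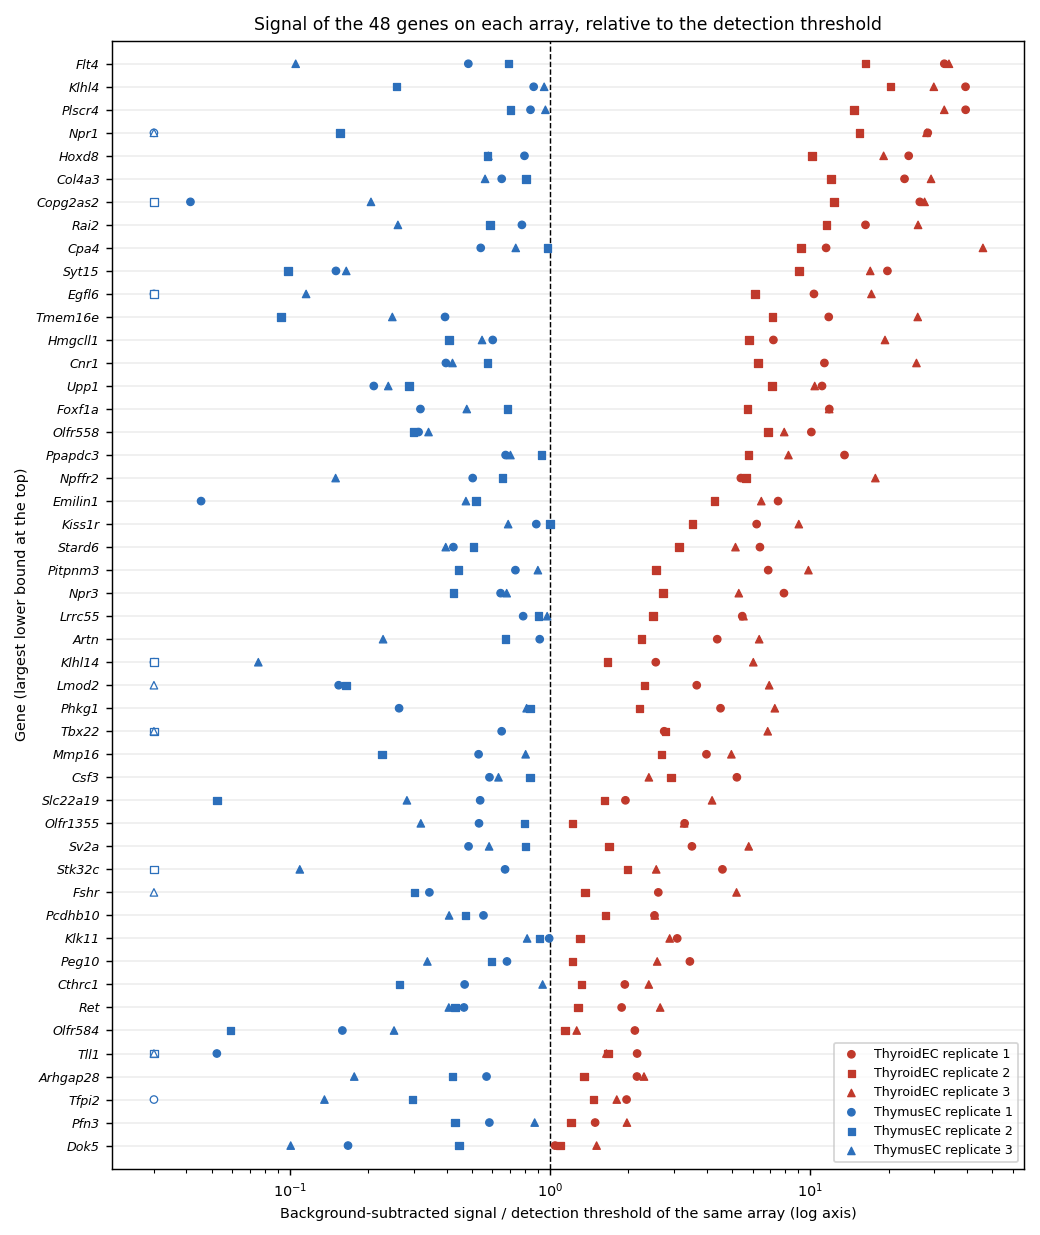
Background-subtracted signal of each gene divided by the detection threshold of the same array (log axis), with 1 point per array, thyroid arrays in red and thymic arrays in blue. Open symbols at the left edge lie below the axis range, and the dashed line is the threshold. Flt4 at the top had thyroid signals of 16.3 to 34.1, whereas Dok5 at the bottom had 1.04 to 1.51.

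A fold against an undetected group has only a lower bound. The bound set the thyroid mean against a thymic mean in which each array counted with the higher of the gene's own signal and the lowest signal that was still well above background on that array. Over the 48 genes the bound ran from 1.496-fold to 45.4-fold with a median of 6.03-fold, or 2.59 on the log2 scale. Of these genes, 47 had a bound of at least 2-fold, 33 of at least 4-fold, 20 of at least 8-fold and 12 of at least 16-fold. These sizes depended on the background correction. After normexp correction with an offset of 50, which adds the offset to every signal and so narrows the ratios of dim ones, the bounds ran from 1.24-fold to 6.23-fold, 22 genes had at least 2-fold and 9 at least 4-fold, and the counts at 8-fold and 16-fold were 0. After quantile normalization they ran from 3.75-fold to 78.3-fold, and 47 genes had at least 4-fold. Every fold given below for one of the 48 genes is on the 75th percentile scale with the processed signal unless another is named. Among all 21489 genes that entered the limma fit described below, 2.82% had a bound of 8-fold or more towards the thyroid. In these bulk samples fewer cells of a type and less RNA per cell cannot be told apart.

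Some of the probes are shown to make clear what was measured. The receptors form the largest group with a textbook function on the cell surface, so probes of 4 receptors are printed, followed by a pair of overlapping probes of an odorant receptor. All are 60 bases long, written 5′ to 3′ as in the array files, which place them on the mm8 build. Capitals mark the 40 bases that the Olfr584 probes share.
Npr1 (chr3:90541176-90541669, minus strand): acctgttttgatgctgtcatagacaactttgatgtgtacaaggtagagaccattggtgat
Fshr (chr17:88893659-88893718, minus strand): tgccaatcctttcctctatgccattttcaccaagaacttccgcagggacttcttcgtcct
Npffr2, first probe (chr5:90643234-90643293, plus strand): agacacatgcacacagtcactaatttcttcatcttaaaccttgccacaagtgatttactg
Npffr2, other probe (chr5:90657923-90657982, plus strand): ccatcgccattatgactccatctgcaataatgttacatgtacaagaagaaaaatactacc
Ret (chr6:118119504-118119563, minus strand): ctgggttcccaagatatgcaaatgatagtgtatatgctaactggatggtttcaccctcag
Olfr584, undetected probe (chr7:102960170-102960229, plus strand): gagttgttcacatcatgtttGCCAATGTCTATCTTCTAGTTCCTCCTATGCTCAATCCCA
Olfr584, detected probe (chr7:102960190-102960249, plus strand): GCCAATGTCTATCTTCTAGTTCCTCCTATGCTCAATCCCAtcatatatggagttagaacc
The Npr1 probe spans 494 bases of the genome with 60 letters, as a probe across a splice junction would. The probes that stand for Emilin1, Kiss1r, Klk11, Slc22a19 and Stk32c spanned 386 to 1203 bases. The other detected probe of Syt15 spanned 928 bases, and a probe of Mmp16 that was not detected on every thyroid array spanned 17019. The Tll1 probe spanned 73 bases, a gap too short for an intron. For the remaining probes, exon or UTR was not analysed here, because no annotation of the mm8 build was used.

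Among the 11 receptors the bounds ran from 2.47-fold to 45.4-fold, with a median of 7.14-fold. Flt4, the receptor for the lymphatic growth factors VEGF-C and VEGF-D (probe at chr11:49495567-49495626), had the largest bound of the 48 genes, except after normexp correction, where Klhl4 was ahead (6.23-fold against 6.01-fold). Its signal was 32.8, 16.3 and 34.1 times the threshold on thyroid replicates 1 to 3 and 0.485, 0.691 and 0.105 times on the thymic replicates. That no thymic array reached the threshold follows from the rule. All 3 thyroid arrays were far above it, and the thyroid mean was at least 45.4-fold higher. That bound was 6.01-fold after normexp correction and 78.3-fold after quantile normalization. The thyroid level was -0.73 ± 0.08 (SD, n = 3), the smallest spread of any of the 48 genes.

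Flt4 belongs to a list of endothelial receptors, and the other genes of the endothelial lists were measured beside it. These were compared between the groups with limma, two-sided and with Benjamini-Hochberg adjustment over 21489 genes, of which 30.6% were higher in the thyroid and 39.3% higher in the thymic samples at an adjusted p under 0.05. Of 32 other endothelial receptors tested, 28 were higher in the thyroid samples and 1 in the thymic samples, with a median difference of 5.80 on the log2 scale against -0.11 over all other genes tested. Eltd1 and Clec14a, which met the flags of the rule, are among the 32, so their direction followed from the flags. Of the 32 receptors, 27 were well above background on every thymic array. Kdr, the main receptor of vascular VEGF, was 10.80 higher on the log2 scale (SE 0.15, adjusted p = 1.93e-07 by limma). Flt1, its decoy relative, was 7.43 higher (adjusted p = 5.67e-07), and the co-receptors Nrp1 and Nrp2 were 7.98 and 2.32 higher. Markers used for lymphatic vessels were measured as well. Prox1, the regulator of lymphatic identity, differed by -0.30 (adjusted p = 0.256 by limma) and by 0.22 after median centring (adjusted p = 0.398 by limma), and Lyve1, a lymphatic hyaluronan receptor, was well above background on 1 of 3 thyroid and 3 of 3 thymic arrays.

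Over all 5 endothelial lists, 99 of 113 genes tested were higher in the thyroid samples and 3 in the thymic samples, and 110 were well above background on every thyroid array. On every thymic array 106 were. Eltd1 and Clec14a are counted here too. Their summed signal was 2127 to 2912 times the array's 75th percentile on the thyroid arrays and 308 to 350.1 times on the thymic arrays. The part of endothelial RNA in the levels of Flt4 or of the other 47 genes was not tested.

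Both natriuretic peptide receptors among the 48 genes were detected by every probe that measured them. Npr1, the receptor guanylyl cyclase for the peptides released by the heart, gave 28.3, 15.5 and 27.99 times the threshold on thyroid replicates 1 to 3. Its thymic signals were -0.0416, 0.156 and -0.0891 times the threshold, around the background itself, and none of the thymic arrays passed even the weaker flag. The thyroid mean was at least 27.3-fold higher. Npr3, which clears the same peptides, was measured with 3 probes, whose bounds were 6.08-fold, 3.15-fold and 2.81-fold. Its strongest probe gave 7.92, 2.72 and 5.31 times the threshold on the thyroid arrays and 0.645, 0.426 and 0.681 times on the thymic arrays. Npr1 therefore stood clear of the threshold on both sides, whereas Npr3 was close to it on thyroid replicate 2.

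Cnr1, the cannabinoid receptor of the nervous system, was 11.3, 6.31 and 25.6 times the threshold on the thyroid arrays and between 0.398 and 0.575 times on the thymic arrays, a bound of 14.1-fold. Npffr2, a receptor for neuropeptide FF, was 5.41, 5.66 and 17.8 times the threshold on the thyroid arrays. Both genes were highest on thyroid replicate 3. The bounds of the Npffr2 probes printed above were 3.58-fold for the first and 9.60-fold for the other. Kiss1r, the kisspeptin receptor, was 6.22, 3.53 and 9.04 times the threshold on the thyroid arrays but reached 0.997 times on thymic replicate 2, the thymic signal nearest to detection among the 48 genes. Its bound was 7.14-fold.

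Fshr, the receptor for follicle-stimulating hormone and a close relative of the thyrotropin receptor, was weak. It gave 2.61, 1.36 and 5.21 times the threshold on the thyroid arrays and 0.344, 0.302 and -0.0794 times on the thymic arrays. The bound was 3.13-fold, and thyroid replicate 2 lay close to the limit.

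Ret, the signalling receptor of the GDNF family and a gene of thyroid C cells, was printed in 10 spots on each array. All 10 spots were detected on thyroid replicates 1 and 3 and 8 on replicate 2, with mean signals of 1.88, 1.28 and 2.65 times the threshold. On the thymic arrays none of the spots kept was detected, and the mean signals were 0.466, 0.431 and 0.408 times the threshold. A single spot on thymic replicate 1 stood at 1.14 times the threshold and was removed as an outlier, and with it kept Ret would not have qualified. The bound was 2.47-fold.

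Other C-cell and neuroendocrine genes went in both directions. Of 20 tested besides Ret, 8 were higher in the thyroid and 10 in the thymic samples by limma, with a median of -0.35 on the log2 scale that turned to 0.18 when the arrays were centred on their medians. Calca, which encodes the C-cell hormone calcitonin, was 4.04 higher in the thyroid samples (SE 0.14, adjusted p = 1.26e-06 by limma). The GDNF co-receptor Gfra4 differed by -0.18 (adjusted p = 0.423 by limma) and by 0.35 after median centring. Gfra1, detected on 2 of 3 thyroid arrays, was lower in the thyroid samples by 1.68 (adjusted p = 0.00101 by limma), a call that was lost after quantile normalization (-0.39, adjusted p = 0.192). The summed signal of the list was 504.5 to 888 times the 75th percentile on the thyroid arrays and 106 to 135 times on the thymic arrays, and its part in the Ret signal was not tested. Chga, which stands in the parathyroid list as well, is in this sum. Its levels were 6.31, 8.42 and 6.36 on thyroid replicates 1 to 3.

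The 3 odorant receptors were Olfr558, Olfr584 and Olfr1355, which belong to the largest family of mouse receptors. Olfr558 was 10.1, 6.89 and 7.94 times the threshold on the thyroid arrays and 0.298 to 0.341 times on the thymic arrays, a bound of 10.6-fold. Olfr1355 and Olfr584 had bounds of 3.81-fold and 2.47-fold, and in both only some of the probes were detected. The detected probe of Olfr584 gave 2.12, 1.14 and 1.27 times the threshold. The probe that overlaps it by 40 bases was not detected on any array, with 0.461, -0.0494 and 0.546 times the threshold on the thyroid arrays, so the value of Olfr584 rests on a single probe, which has 20 bases that the other lacks. Odorant receptors, protocadherins such as Pcdhb10 and carriers such as Slc22a19 have near-identical relatives, and whether other transcripts bound these probes was not tested. Olfr558 and Olfr584 lie 376.508 kb apart on chromosome 7 with 19 coding genes between them.

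**Figure D2:**
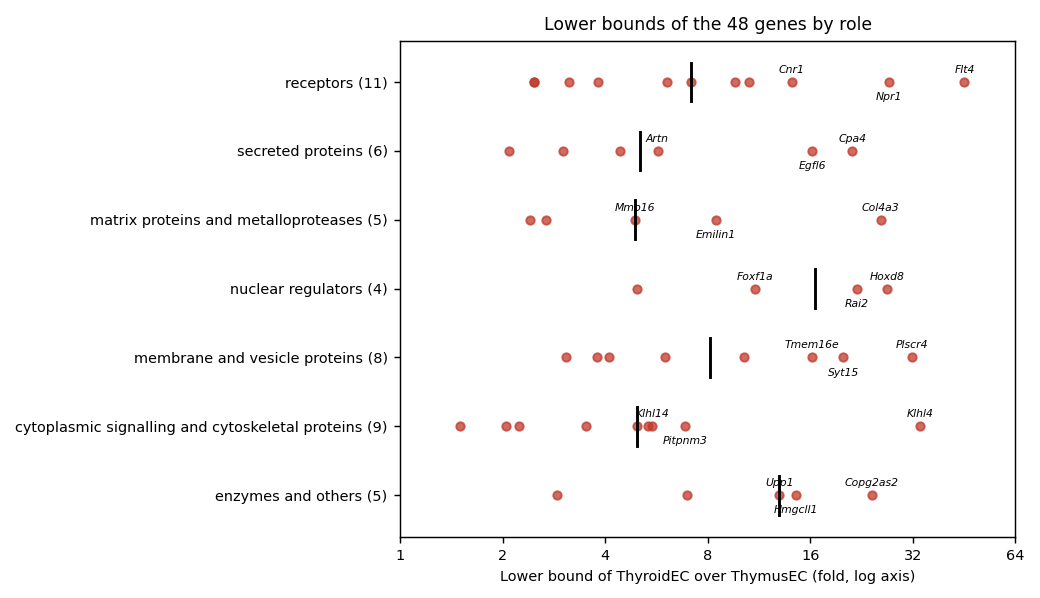
Lower bound of the thyroid over the thymic mean (fold, log axis) for each of the 48 genes, 1 point per gene, with the number of genes per role in brackets. Black bars are the medians, from 4.88-fold in matrix proteins and metalloproteases to 16.5-fold in the 4 nuclear regulators, and up to 3 genes with the largest bounds are named in each role.

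The 6 secreted proteins had bounds of 2.09-fold to 21.3-fold. Cpa4, a carboxypeptidase, was 11.5, 9.21 and 46.1 times the threshold on the thyroid arrays and 0.541, 0.977 and 0.738 times on the thymic arrays. Its level was -1.76 ± 0.86 (SD, n = 3), the widest spread of the 48 genes, because thyroid replicate 3 stood far above the others. Egfl6, a secreted protein with EGF repeats, was 10.3, 6.14 and 17.2 times the threshold on the thyroid arrays and no higher than 0.115 times on any thymic array, for a bound of 16.2-fold.

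Artn encodes artemin, a ligand of the GDNF family that signals through Ret. It was 4.39, 2.25 and 6.36 times the threshold on the thyroid arrays and 0.912, 0.674 and 0.228 times on the thymic arrays, and its bound was 5.70-fold. The co-receptor of artemin, Gfra3, was well above background on all 6 arrays and differed by -1.25 on the log2 scale (SE 0.51, adjusted p = 0.0640 by limma, and -1.33 with adjusted p = 0.0418 after quantile normalization). Csf3, the granulocyte growth factor G-CSF, was 5.22, 2.91 and 2.40 times the threshold on thyroid replicates 1 to 3. Its level differed most in the downward direction between thyroid replicates 3 and 1, by -1.49 on the log2 scale. The kallikrein-related protease Klk11 (3.01-fold) and the protease inhibitor Tfpi2 (2.09-fold) were near the limit, and Klk11 reached 0.992 times the threshold on thymic replicate 1.

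Of the 5 matrix proteins and metalloproteases, Col4a3 had the largest bound at 25.8-fold. This collagen IV chain of specialised basement membranes was 23.0, 12.01 and 29.1 times the threshold on the thyroid arrays and 0.652, 0.808 and 0.562 times on the thymic arrays. Another of its 3 probes was also detected on every thyroid array, with a bound of 8.95-fold. Emilin1, a glycoprotein of elastic fibres, was 7.52, 4.29 and 6.48 times the threshold on the thyroid arrays, with a bound of 8.45-fold. The membrane-type metalloprotease Mmp16 (4.88-fold), the collagen-repeat protein Cthrc1 (2.67-fold) and the tolloid-like protease Tll1 (2.40-fold) were nearer to the limit. Of 18 fibroblast and matrix genes measured beside them, 1 was higher in the thyroid and 5 in the thymic samples by limma. Their summed signal was 10.1 to 29.0 times the 75th percentile on the thyroid and 27.8 to 47.2 times on the thymic arrays.

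The nuclear regulators had the highest median bound, 16.5-fold over 4 genes. Hoxd8, a homeobox factor of body patterning, was 23.9, 10.1 and 19.1 times the threshold on the thyroid arrays and 0.797, 0.575 and 0.579 times on the thymic arrays. Rai2, a nuclear protein induced by retinoic acid, was 16.3, 11.6 and 25.96 times the threshold on the thyroid arrays. Foxf1a (Foxf1 in RefSeq), a forkhead factor of mesenchyme and vessels, was 11.8, 5.75 and 11.8 times, with a bound of 11.04-fold. All 3 were more than 5 times above the limit on every thyroid array. Tbx22, a T-box factor of palate development, was weaker, at 2.74, 2.77 and 6.86 times the threshold. Only 1 of its 3 probes was detected on every thyroid array.

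In the 8 membrane and vesicle proteins, bounds ran from 3.07-fold to 31.9-fold. Plscr4, a phospholipid scramblase, was 39.6, 14.7 and 32.7 times the threshold on the thyroid arrays, yet 0.841, 0.705 and 0.959 times on the thymic arrays. Syt15, a synaptotagmin, was detected by both probes, with bounds of 20.0-fold and 12.3-fold. Its strongest probe was at 0.165 times the threshold or less on every thymic array. The other probe was at 0.558, 0.609 and 0.638 times the threshold there and passed the weaker flag on all 3. Tmem16e (Ano5 in RefSeq), an anoctamin, had 11.8, 7.18 and 25.9 times the threshold on the thyroid arrays and a bound of 16.2-fold. Ppapdc3 (Plpp7 in RefSeq), of the lipid phosphatase family, had a bound of 10.3-fold with 0.926 times the threshold on thymic replicate 2. Lrrc55, an accessory subunit of potassium channels, had 5.97-fold. The organic anion carrier Slc22a19 had 4.11-fold, the vesicle glycoprotein Sv2a 3.77-fold and the protocadherin Pcdhb10 3.07-fold.

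Among 9 cytoplasmic proteins Klhl4 stood out. This kelch protein encoded on the X chromosome was 39.5, 20.3 and 29.9 times the threshold on the thyroid arrays and 0.865, 0.257 and 0.949 times on the thymic arrays, a bound of 33.7-fold. Its relative Klhl14 had a bound of 5.50-fold, with thymic signals no higher than 0.0756 times the threshold. The thymic arrays thus differed in how close they came to detecting each of the kelch genes. Pitpnm3, of the phosphatidylinositol transfer family, had a bound of 6.86-fold. Lmod2 and Phkg1, an actin nucleator and a kinase subunit best known from striated muscle, had bounds of 5.33-fold and 4.97-fold. Of 15 other skeletal muscle genes, 2 were higher in the thyroid and 11 in the thymic samples by limma, with a summed signal of 4.04 to 4.78 times the 75th percentile on the thyroid and 20.5 to 21.1 times on the thymic arrays. All 15 were well above background on every thymic array, but only 8 on every thyroid array. The rest entered the fit through the thymic arrays alone. The kinase Stk32c (3.50-fold), Arhgap28 (2.23-fold), the profilin Pfn3 (2.04-fold) and the adaptor Dok5 (1.496-fold) completed the group.

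The last 5 genes were Copg2as2, Hmgcll1, Upp1, Stard6 and Peg10. Copg2as2, an RNA antisense to Copg2 (chr6:30738805-30738861), was 26.4, 12.3 and 27.5 times the threshold on the thyroid arrays and 0.0414, -0.123 and 0.205 times on the thymic arrays. Both of its probes were detected, with bounds of 24.3-fold and 14.8-fold. Copg2 itself was at a mean level of 0.73 on the thymic arrays, and whether the labelling kept the RNA strands apart is not given in the sources used here. Hmgcll1, a lyase of ketone body synthesis, was 7.22, 5.81 and 19.4 times the threshold, with a bound of 14.5-fold. Upp1, which cleaves uridine, had 11.1, 7.12 and 10.4 times and a bound of 12.99-fold. Stard6, a lipid transfer protein, had 6.97-fold, and the imprinted, retrotransposon-derived Peg10 had 2.89-fold.

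Membership ended at a threshold, and genes on either side of it had like values. Just inside were Dok5, Olfr584 and Pfn3, whose weakest thyroid array stood at 1.04, 1.14 and 1.20 times the threshold. On the thymic side, 27 named genes were kept out by a single thymic array. The nearest were Prmt8 at 1.00 times the threshold on thymic replicate 1, Ntf3 at 1.02 on replicate 3 and Pde3a at 1.03 on replicate 2. Ntf3, the growth factor neurotrophin 3, was 130.3, 61.5 and 91.8 times the threshold on the thyroid arrays and was kept out by that 1 thymic array alone. On the thyroid side 26 genes missed a single array, and the nearest were Inhbc, Olfr1055 and Atp13a5 at 0.983, 0.966 and 0.895 times the threshold on thyroid replicate 2.

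Probes of 1 gene did not always give the same answer. The 48 genes had 62 probes, and 37 genes had a single one. Of 11 genes with several, Copg2as2, Npffr2, Npr3 and Syt15 were detected by all of them. In Col4a3, Cthrc1, Mmp16, Olfr1355, Olfr584, Sv2a and Tbx22 at least 1 probe was not detected on every thyroid array.

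The rule did not use differences among the thyroid arrays directly. By asking for detection on each of them, however, it limited these differences in genes near the threshold. The lowest level well above background was -5.41 on thyroid replicate 2 against -6.22 and -6.57 on replicates 1 and 3. The members' levels had a median SD of 0.34 over the 3 thyroid arrays, against 0.23 in 7919 other genes detected on all thyroid arrays within the same range of levels. These other genes were not matched to the 48 in level inside that range, and the part of level in the spread was not tested. Between replicates 3 and 1, 11 of the 48 genes (22.9%) were higher by 0.5 or more on the log2 scale and 13 (27.1%) lower by as much. The same held for 13.5% and 10.53% of the other genes in that range. The 48 genes therefore spread both ways, with a median of -0.16.

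The 11 genes higher on replicate 3 were Cpa4 (1.66), Npffr2 (1.43), Hmgcll1 (1.17), Klhl14 (0.97), Tbx22 (0.93), Tmem16e (0.88), Slc22a19 (0.88), Cnr1 (0.85), Fshr (0.73), Lmod2 (0.63) and Egfl6 (0.51), each as replicate 3 minus replicate 1 on the log2 scale. On the same scale, the 13 lower genes were Csf3 (-1.49), Olfr584 (-1.08), Stk32c (-1.07), Ppapdc3 (-0.995), Npr3 (-0.84), Klhl4 (-0.71), Peg10 (-0.66), Hoxd8 (-0.62), Olfr558 (-0.62), Plscr4 (-0.60), Tll1 (-0.59), Upp1 (-0.53) and Stard6 (-0.51). In Npr3 all 3 probes were lower on replicate 3, by -0.84, -0.76 and -0.35, and in Npffr2 both were higher, by 0.89 and 1.43. Of 5 genes with several probes detected on all thyroid arrays, 4 had the same sign in each probe, the exception being Copg2as2 at -0.27 and 0.54.

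Lists of cell type genes also differed between these arrays. The median difference of replicate 3 minus replicate 1 was -0.57 over the endothelial lists, where 7 of the 110 genes detected on all thyroid arrays were higher on replicate 3. It was 0.57 over the thyroid follicular list, where 30 of 34 were higher, and 0.37 over general epithelial genes. Pericyte and fibroblast lists had medians of -0.90 and -1.26. Replicate 2 stood out by parathyroid genes instead, with a list median of 1.59 over replicate 1. None of the 48 genes was higher by 1 or more there, and the highest was Dok5 at 0.95. Dok5 stood at 1.04 and 1.09 times the threshold on replicates 1 and 2. The higher threshold of replicate 2 admits so dim a gene only with a raised level there. The part of the listed cell types, or of the sex-linked difference of replicate 3, in the differences of single genes was not tested.

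**Figure D3:**
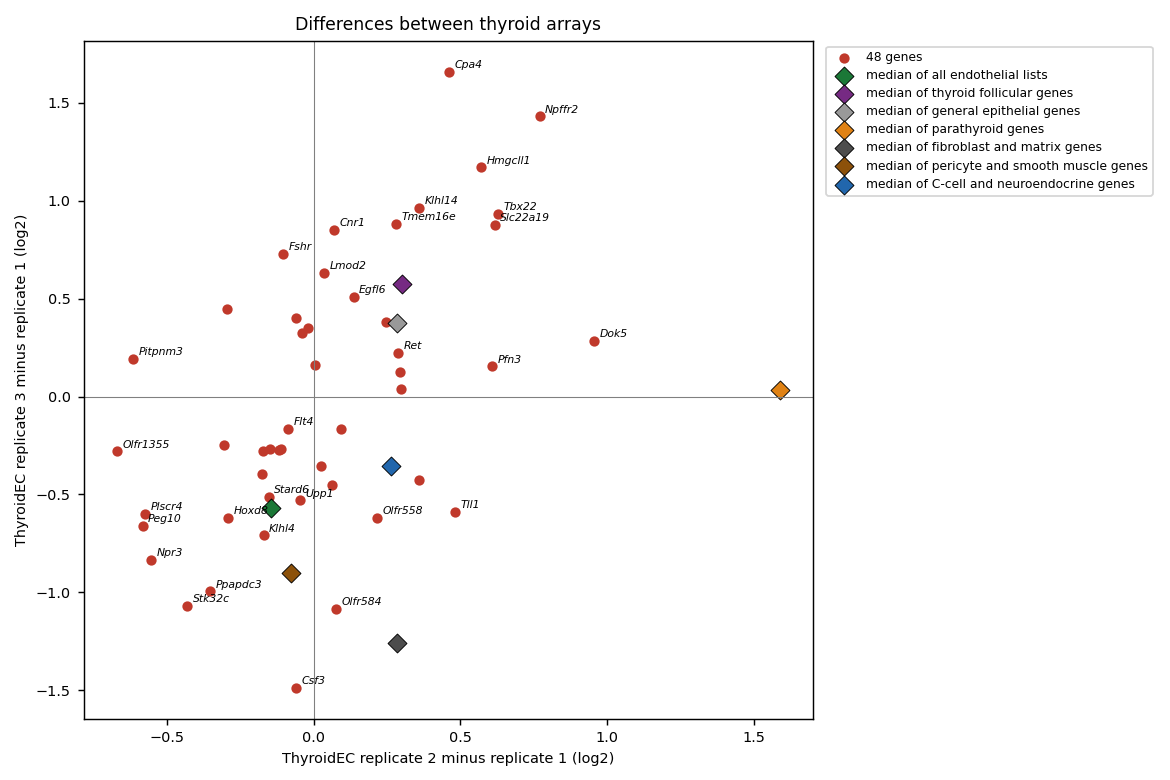
Difference of thyroid replicate 2 (horizontal) and of thyroid replicate 3 (vertical) from thyroid replicate 1, in log2 units. Red points are the 48 genes and diamonds the medians of lists of cell type genes, among which the endothelial lists lie at -0.57 and the follicular list at 0.57 on the vertical axis.

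Because thyroid replicate 1 shared a slide with the thymic arrays, a slide term was fitted in limma beside the group. No gene of 21489 passed an adjusted p of 0.05 in either direction (0% called, lowest adjusted p 0.234), and 2623 genes, or 12.2%, had an unadjusted p under 0.05. None of the 48 genes did, and their lowest adjusted p was 0.448. The term sets 2 arrays against 1, so slide and replicate cannot be told apart. Of the 48 genes, 17 were above replicate 1 on both arrays of slide 2, 18 below on both and 13 in between.

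The other genes of the fixed lists give the setting in which the 48 genes were measured. Only Flt4 and Ret stood in any list. Of 39 thyroid follicular genes, 21 were higher in the thyroid and 12 in the thymic samples by limma, with a median of 1.03 on the log2 scale. Pax8 and Tshr, which met the flags of the rule, are among the 39, so their direction followed from the flags. The follicular sum was 725 to 937 times the 75th percentile on the thyroid and 45.3 to 50.4 times on the thymic arrays. On the thyroid arrays most of this linear sum came from Tg alone. Of 20 pericyte and smooth muscle genes 8 were higher in the thyroid and 5 in the thymic samples, and of 10 parathyroid genes 3 and 4. The parathyroid sum was nonetheless 165.5 to 728 times the 75th percentile on the thyroid arrays, highest on replicate 2, and 37.4 to 95.8 times on the thymic arrays. On replicate 2 nearly all of this linear sum came from Pth and Chga, at levels of 8.57 and 8.42. Blood cell genes were higher in the thymic samples in 22 of 26 and in the thyroid samples in 1, and general epithelial genes in 15 and 2 of 20, which became 9 and 4 after median centring. All 26 blood cell genes were well above background on every thymic array, but only 13 on every thyroid array. The rest entered the fit through the thymic arrays alone, which favours that direction. The Schwann cell list had 2 higher and 6 lower of 13 in the thyroid samples, and S100b, a calcium-binding protein of glia and other cells, was 5.01 higher (adjusted p = 3.82e-07 by limma). For adipocyte genes it was 2 and 7 of 11, for red cell genes 3 and 6 of 10, for ciliated genes 1 and 7 of 8, and no sex-linked gene of 6 passed. Well above background on every thyroid array were 9 Schwann cell, 8 adipocyte, 6 red cell, 7 ciliated and 1 sex-linked gene. On every thymic array all tested genes of these lists were, so the others entered the fit through the thymic arrays alone. The red cell sum went the other way from its count, with 69.8 to 86.4 times the 75th percentile on the thyroid and 7.60 to 12.7 times on the thymic arrays. The globin genes Hbb-b1 and Hba-a1 were 3.54 and 3.46 higher on the log2 scale in the thyroid samples (adjusted p = 7.47e-05 and 2.52e-05 by limma). The part of red cell or parathyroid RNA in the levels of the 48 genes was not tested.

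**Figure D4:**
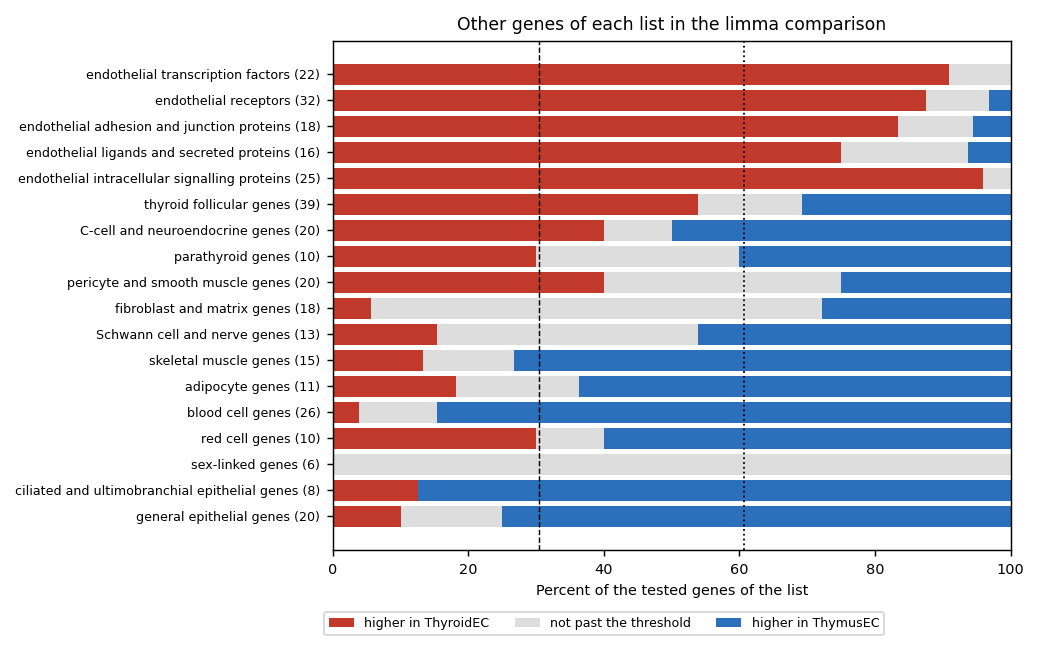
Share of the tested genes of each list that were higher in thyroid samples (red), higher in thymic samples (blue) or not past an adjusted p of 0.05 in limma (grey), without the 48 genes and with the number tested in brackets. Pax8, Tshr, Eltd1 and Clec14a, which met the flags of the rule, are kept in their lists. The dashed line is the share of all other genes higher in thyroid and the dotted line bounds the share higher in thymic samples, and the endothelial lists reach farthest right in red, with 99 of 113 genes.

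The rule did not use position. Chromosome 6 held 6 of the 48 genes, or 12.5%, against 5.37% of the named genes with a position, and the X chromosome held 4, or 8.33% against 3.61%. Both shares are counts of a few genes and carry no test. The genes on chromosome 6 were Tfpi2, Peg10, Lmod2, Cpa4, Copg2as2 and Ret. Cpa4 and Copg2as2 lie 197.264 kb apart, and Tfpi2 and Peg10 lie 794.428 kb apart with 6 coding genes between them. On the X chromosome Tbx22 and Klhl4 were separated by 22 coding genes.

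Both stretches of chromosome 6 are known for imprinting, the expression of a gene from the copy of a single parent, and Peg10, Sgce and Mest are expressed from the paternal copy. The neighbours were not chosen by the rule and were tested with limma. From 5 genes before Tfpi2 to 5 after Peg10, 14 neighbours were tested, of which 7 were higher in the thyroid and 4 in the thymic samples. The 4 were detected on every thymic array and on no thyroid array. Hepacam2 (AI987662 on the array) had a thymic mean at least 79.6-fold above the thyroid mean, and for Calcr, the calcitonin receptor, the bound was 24.9-fold. Gngt1 and Pon1 were the others, with thymic levels of -5.17 and -5.67 on the log2 scale and bounds of 1.86-fold and 1.32-fold. The fit took genes detected on all 3 arrays of either group. These 4 genes entered it through the thymic arrays alone, which largely set their direction. Gng11, between Tfpi2 and Peg10, was 4.73 higher on the log2 scale in the thyroid samples (adjusted p = 2.64e-06 by limma). Sgce, a sarcoglycan that lies next to Peg10, was 3.81 higher (adjusted p = 3.60e-06 by limma). Ppp1r9a, an actin-binding scaffold on the other side, was 3.46 higher. Around Cpa4 and Copg2, 9 of 12 neighbours were higher in the thyroid and 3 in the thymic samples. Mest, which lies between Cpa4 and Copg2, was 3.26 higher (adjusted p = 2.09e-05 by limma), and Copg2 itself was 0.87 higher. Podxl, beyond Copg2, was 10.17 higher (adjusted p = 3.62e-06 by limma). It was well above background on 3 of 3 thyroid arrays and 1 of 3 thymic arrays, and so entered the fit through the thyroid arrays alone. Its thymic mean of -6.63 lay below the lowest level well above background on any thymic array, -6.42. The size of its difference is therefore uncertain. The 3 higher in the thymic samples were Klf14, a Krüppel-like factor, Cpa1, a pancreatic carboxypeptidase, and 1700012A03Rik. Klf14 and Cpa1 were detected on no thyroid array and had thymic levels of -4.85 and -5.47 on the log2 scale. Their bounds towards the thymic samples were 2.32-fold and 1.51-fold. 1700012A03Rik was detected on 2 of 3 thyroid arrays. All 3 genes entered the fit through the thymic arrays alone. These counts stand beside 30.6% and 39.3% over the whole table.

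**Figure D5:**
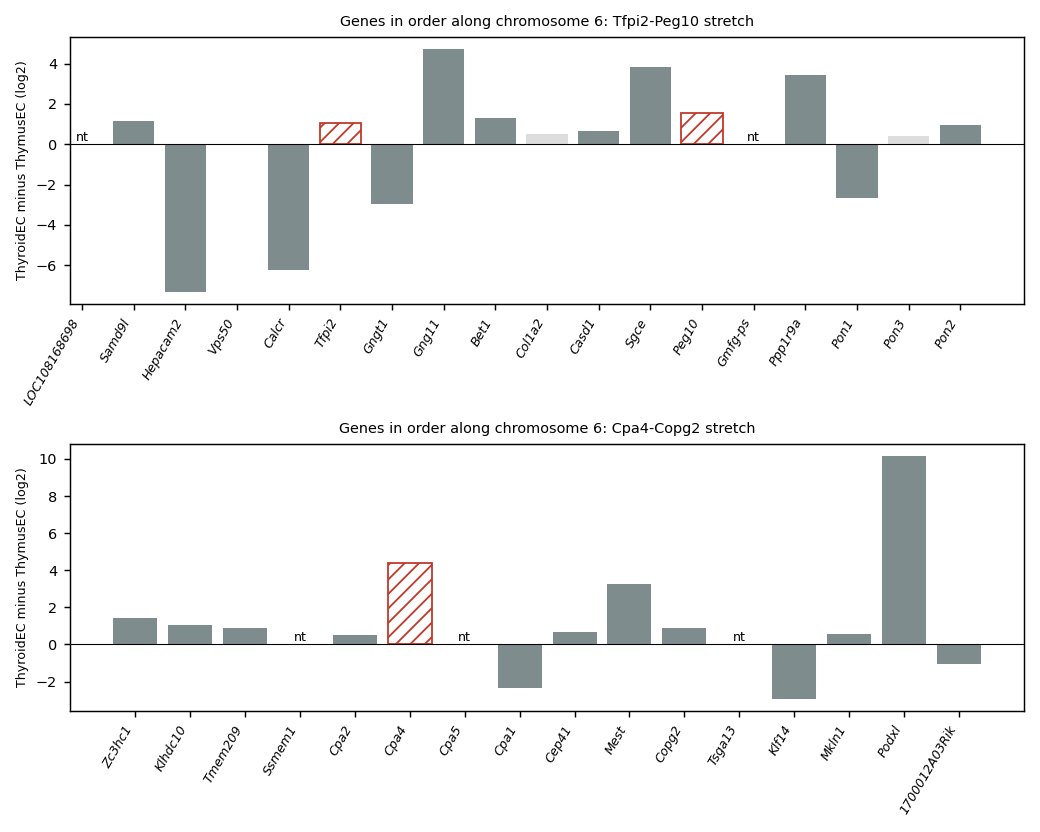
Difference between thyroid and thymic samples (log2) of the genes in their order along both stretches of chromosome 6. Hatched bars are lower bounds of genes among the 48. Dark grey bars are fitted differences past an adjusted p of 0.05 in limma, light grey bars are not, and nt marks genes that were not tested. Podxl (10.17), Gng11 (4.73), Sgce (3.81) and Mest (3.26) are among the higher bars. The thymic mean of Podxl lay below the detection limit. The downward dark bars, apart from 1700012A03Rik, are genes detected on no thyroid array. The fitted sizes of all of these are uncertain.

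Promoter windows from RefSeq (GRCm38.p6), which run from upstream of the start of a gene to just after it, were found for 35 of the 48 genes. Their median GC content was 55.3%, against 52.7% over 27025 windows, and the median ratio of observed to expected CpG was 0.384 against 0.389. A ratio of 0.6 or more was found in 25.7% of their windows and in 36.5% of all. Short motifs were searched on both strands. CAGGAA, a core of ETS factor sites, was present in 31.4% of the windows and in 30.4% of all windows, CCGGAA in 11.4% and 15.2%, and TATAAA in 5.71% and 14.2%. AACAAT was found in 8.57% against 10.9%, AGATAA in 11.4% against 11.4%, CAAG in 88.6% against 90.7% and TGACGTCA in 0% against 1.88%. With 35 windows each share rests on few genes, and TATAAA was in 2 of them, Cpa4 and Olfr584. The windows of Flt4, chosen for its bound on the 75th percentile scale, and of Cpa4, the gene with the widest spread, are shown, with a match to CAGGAA on the opposite strand in capitals.
Flt4 (chr11:49609429-49609728, plus strand): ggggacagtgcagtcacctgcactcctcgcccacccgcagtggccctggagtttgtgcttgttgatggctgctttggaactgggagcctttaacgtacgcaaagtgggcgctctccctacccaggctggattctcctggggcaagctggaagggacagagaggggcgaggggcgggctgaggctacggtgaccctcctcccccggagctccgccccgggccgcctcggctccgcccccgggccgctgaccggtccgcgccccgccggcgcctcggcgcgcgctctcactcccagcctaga
Cpa4 (chr6:30568119-30568418, plus strand): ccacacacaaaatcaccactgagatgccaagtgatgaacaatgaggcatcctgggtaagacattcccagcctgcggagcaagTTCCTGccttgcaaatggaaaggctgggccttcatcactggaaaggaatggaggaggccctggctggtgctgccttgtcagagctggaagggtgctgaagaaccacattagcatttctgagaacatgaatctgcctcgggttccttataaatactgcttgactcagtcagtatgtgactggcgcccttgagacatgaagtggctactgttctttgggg
The Flt4 window held 70.3% GC with a CpG ratio of 0.702 and the Cpa4 window 51.0% with 0.155, so these windows of picked genes differed in composition. GC content of the probes themselves had a median of 40.8% over the 48 genes and 40.0% over all probes.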

How the data were processed

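RNA levels of 6 arrays, 3 per group, were analysed. Per the file headers, spots were read with Agilent Feature Extraction 10.5.1.1, and in the deposited scanner files every spot has an intensity, background-subtracted by that software, and detection flags. The authors' deposited value table is a linear ratio: its columns are processed signals over the median of the array.

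Left out were control spots and, on each array, 67 to 151 outlier spots. Levels are log2 of the processed signal minus the array's 75th percentile. A probe counted as detected if any kept spot was flagged, and the detected probe with the highest mean level stood for a gene. The comparison of the groups used limma 3.58.1 (R 4.3.3) and genes detected on all 3 arrays of either group. Fits were tested on simulated data. Figures used matplotlib 3.10.9.

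The 48 genes and the lists were chosen with earlier results of these data known. Named were genes in a list, the 25 largest bounds, families, genes at the threshold and genes with several detected probes. Up to 3 others with large differences per list could be named too. Of these only Kdr, Tg, S100b, Hbb-b1 and Hba-a1 are, and most lists have none. Further members, VEGF and GDNF family genes, chromosome 6 neighbours and label markers were named after their values were seen. RefSeq names matched 47 of the 48 genes, 3 by an older symbol. Alternatives were other scaling, normexp background correction with an offset of 50, filters, flags, slide and replicate blocks, and leaving out each array. P-values measure the spread between these pools.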

Additional observations from a re-analysis of the deposited data

How the results depend on the processing

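The number of genes that met the rule was 48. It was 5 with the weaker flag on the thymic arrays, 31 when 2 times the threshold was asked of each thyroid array, 154 with all names kept and 91 on slide 1 alone. Leaving out 1 array gave 48 to 72 genes, all with the 48 among them, and the highest number came without thyroid replicate 2. Keeping outlier spots gave 47 (Ret lost), and removing spots with background outliers, an alternative chosen after seeing the data, gave 46 (Cnr1 and Npr1 lost). The median bound, 2.59 on the log2 scale, was 3.12 after median centring, 3.12 with the deposited value table, 3.65 after quantile normalization, 0.89 after normexp correction and 2.49 to 2.74 without 1 array. With membership and probe held, no bound of a single gene changed sign in 480 recomputed values, which the rule largely fixes in advance. Of these values, 185 moved by more than 1 SD. Median centring shifted the median of all genes by 0.52, so 11014 genes were higher in thyroid and 6158 in thymic samples against 6569 and 8438 before. The deposited value table gave 11012, quantile normalization 8091 against 7221 and the filter on all 6 arrays 6452 against 5056. Genes of the lists higher in thyroid numbered 152, and 145 to 173 over the alternatives. The slide term called 0 genes, 50 after quantile normalization and 1 after normexp correction; the cause was not tested. With a replicate block, 6034 genes were higher in thyroid and 152 of the lists. The same-numbered arrays' deviations correlated at 0.0071, -0.067 and -0.055 across genes, so they share only a number. Without 1 array, 5655 to 6418 genes were higher in thyroid. Dim probes near the detection limit bound what these arrays can show.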
